A study of Rattus norvegicus with 36 samples.

Results

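Polysomal RNA was compared with total RNA of rat skeletal muscle collected 6 h after resisted contractions, across every probe set of the array that is not a control. The comparison used 16 of the 36 arrays of the series, chosen by their titles: 8 arrays of polysomal RNA and 8 of total RNA. Each fraction was given numbers 1 to 4 with 2 arrays, a and b, per number, and the 2 arrays were averaged on the log2 scale, so that n = 4 per fraction. The source muscle carried the label "ta", and neither strain, sex nor age of the rats was among the labels. The rest of the series held polysomal and total RNA 1 h after contractions, with 2 numbers each, and polysomal RNA of control muscle. No total RNA of unexercised muscle was analysed here, so a fraction difference at 6 h could not be set against rest. The labels do not say whether a number was 1 animal, whether equal numbers in the 2 fractions came from the same muscle, or whether a and b were repeat hybridisations. The p-values below therefore measure the spread between numbers, pooled over all 6 groups of the series, which need not be a spread between animals.

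A message that is being translated carries ribosomes, and messages with several ribosomes sediment together as polysomes. The share of a message found there, relative to its amount in the whole tissue, is known as its ribosome loading and can change without any change in the amount of message. In muscle, resisted contraction is known to activate the mTOR pathway, which acts most strongly on messages that begin with a run of pyrimidines, such as those for ribosomal proteins.

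Because the arrays were scaled to a common mean, a difference between the fractions is relative to the average message and carries no information on how much RNA was on polysomes in all. The median difference was -0.15 on the log2 scale over the 3903 genes with a named probe set that was tested, and gene lists are described relative to that median. Each gene was represented by its brightest probe set. Signals at or below a floor of 129.5 were set to it. A difference was called where its adjusted p in limma was below 0.05, and differences are given as log2 polysomal minus total with the standard error of the fit. Muscle tissue holds several cell types, and fewer cells of a type cannot be told apart from less RNA per cell.

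Some arrays stood apart. The beta-actin 3' to 5' signal ratio, which rises when RNA or its labelled copy is short, was 9.01 and 11.5 on the 2 arrays of total number 3. It lay between 1.01 and 1.58 on the other 6 arrays of total RNA and between 2.54 and 4.48 on the 8 polysomal arrays. Total numbers 1 and 2 correlated with each other at r = 0.97 across probe sets, but with total number 3 at only 0.81. Total number 4 correlated more closely with the 4 polysomal numbers, at 0.92 to 0.95, than with total numbers 1 and 2, at 0.90 and 0.91. Its beta-actin 3' to middle ratio was 3.19 and 2.92, against 0.84 to 1.25 in total numbers 1 and 2, and its 5S rRNA signal was 744 and 954, against 1461 to 1685. Its median signal was 178 and 181, against 235 to 249 there and 149 to 249 on the polysomal arrays. The 4 polysomal numbers correlated with each other at 0.95 to 0.97. Within polysomal numbers 1 and 2, however, arrays a and b differed. The GAPDH 3' to 5' signal ratio was 0.42 and 1.30 in number 1 and 0.07 and 0.56 in number 2. It lay between 0.91 and 1.16 on the arrays of polysomal numbers 3 and 4. The median signal was 249 on array a and 176 on array b of number 1, and 216 and 149 in number 2. Whether the arrays of total numbers 3 and 4 hold the RNA named in their titles could not be settled, and this bears on every difference between the fractions that includes them. Results are therefore given for numbers 1 and 2 and for numbers 3 and 4 apart, and without number 3 of both fractions. The part of the 3' to 5' ratio in the results below was not tested.

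**Figure D1:**
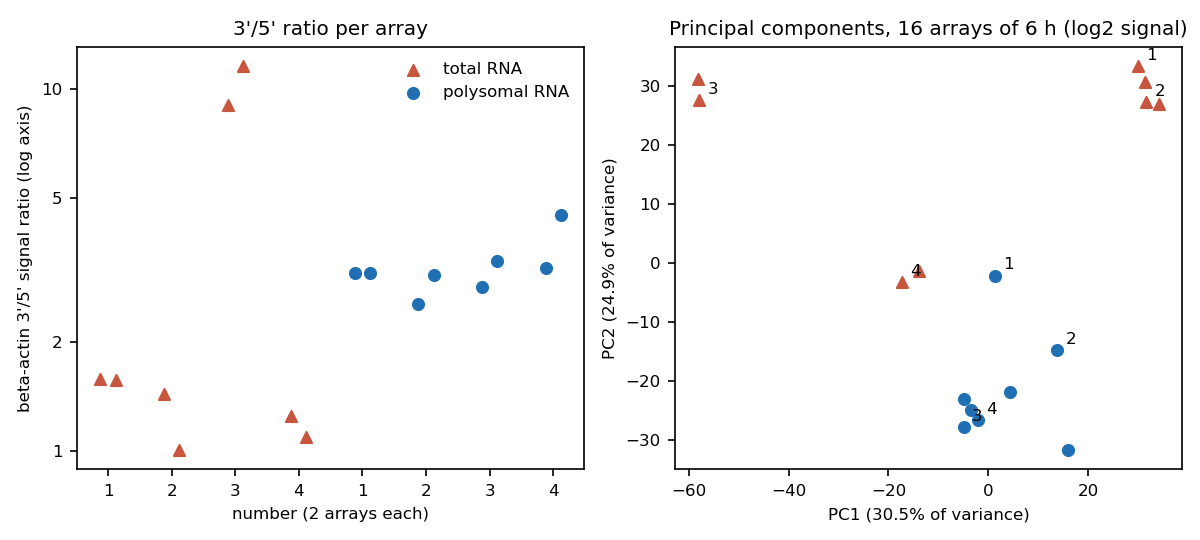
Left, the ratio of the 3' to the 5' beta-actin control signal (log axis) for each of the 16 arrays, by number, with triangles for total and circles for polysomal RNA. Right, the same arrays on the first 2 principal components of log2 signal over the tested probe sets, numbered as in the labels: total number 3 lies alone at the far left, total numbers 1 and 2 at the far right, and total number 4 nearer to the polysomal arrays.

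Of 6707 tested probe sets, 588 (8.77%) differed between the fractions 6 h after contractions, 253 (3.77%) of them higher and 335 (4.99%) lower in polysomal RNA. By gene, 363 of 3903 (9.3%) were called, 166 (4.25%) higher and 197 (5.05%) lower. The difference was 2-fold or more for 260 of the 588 probe sets. For 485 of the 588, the 4 polysomal values did not overlap the 4 total values. Among all probe sets tested, 311 (4.64%) were higher and 479 (7.14%) lower without overlap. The same values made the calls, so the lack of overlap here and in the genes below is a description and no separate support. All 588 had the same sign within numbers 1 and 2 as within numbers 3 and 4, as did 4115 of all 6707, though the pairs themselves make up the comparison. Without number 3 of both fractions, 326 probe sets (4.86%) were called, 168 (2.5%) higher and 158 (2.36%) lower, and 257 of them were among the 588. Leaving out a number of 1 fraction gave between 247 calls (without polysomal number 2) and 1099 (without total number 4), with 285 without polysomal number 3 and 355 without polysomal number 4. A fit of these 2 groups alone called 128, of which 122 were among the 588. The split between higher and lower calls depended on the scaling. Under quantile normalization 323 probe sets were called higher and 169 lower, and under scaling to the 75th percentile 331 and 157.

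The 30 genes with the largest positive differences ranged from 1.47 to 2.44, and 26 of them showed no overlap between the fractions, as did 5.02% of all genes tested in that direction. Rab14, a small GTPase of endosomal and Golgi traffic, led them. Its polysomal signals were 991, 2056, 1230 and 1621 for numbers 1 to 4, against total signals of 232, 259, 297 and 260.5. Every polysomal value was above every total value, and the difference was 2.44 ± 0.25 (adjusted p = 0.000434). Aldoa, the muscle form of the glycolytic enzyme aldolase, read 19650, 13860, 18920 and 27040 in polysomal RNA and 2952, 3816, 2107 and 8689 in total RNA. Its fractions did not overlap either, and the difference was 2.35 ± 0.39 (adjusted p = 0.00403). Klf6, a zinc finger transcription factor, had polysomal signals of 3241, 3157, 3529 and 7271 and total signals of 463, 932, 388 and 2517. Total number 4 came closest to the polysomal values of Klf6, and the difference was 2.32 ± 0.49 (adjusted p = 0.0114).

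Pdgfa encodes the A chain of platelet-derived growth factor, a mitogen of mesenchymal cells. Its polysomal signals of 1431, 1085, 1713 and 1409 all lay above its total signals of 351, 439, 183 and 469.5, a difference of 2.04 ± 0.24 (adjusted p = 0.00113). Prkce, protein kinase C epsilon, stood at 809, 952, 705 and 1063 against 215, 142, 303 and 279, a difference of 1.95 ± 0.30, and all 4 of its tested probe sets pointed the same way. Nr3c1, the glucocorticoid receptor, read 1751, 2678, 1097 and 2031 in polysomal and 466, 453, 666 and 443 in total RNA, a difference of 1.85 ± 0.31 (adjusted p = 0.00403). In each of these genes the lowest polysomal number was above the highest total number.

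Other genes of this end were of diverse function. Wdfy1, which binds a phosphoinositide of endosomes, differed by 1.91 ± 0.25 and Mllt3, a partner of transcription elongation factors, by 1.87 ± 0.29. Plpp3, a lipid phosphate phosphatase, differed by 1.74 ± 0.30 and Plaat3, a phospholipase, by 1.74 ± 0.24. Fam162a and Higd1a, both known as hypoxia-induced mitochondrial proteins, differed by 1.92 ± 0.23 and 1.50 ± 0.24. The complement protease C1r differed by 1.69 ± 0.23, the kinase of splicing factors Srpk2 by 1.72 ± 0.40, and neuropilin-1, Nrp1, by 1.47 ± 0.28. Shank2, a scaffold protein best known at synapses, read 976, 948, 975 and 900.2 in polysomal RNA against 240.1, 370.1, 394 and 336 in total RNA, a difference of 1.53 ± 0.17. For Amd1, the decarboxylase that commits S-adenosylmethionine to polyamine synthesis, the polysomal signals were 856, 1599, 1767 and 1632 and the total signals 527, 844, 258 and 301. Amd1 was nearly equal between the lowest polysomal and the highest total number, and its difference of 1.71 ± 0.41 was 0.81 within numbers 1 and 2 and 2.61 within numbers 3 and 4.

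The 30 genes with the largest negative differences ranged from -1.95 to -1.10, and 25 of them showed no overlap, against 7.48% of all genes in that direction. Epn1, epsin-1, an adaptor of clathrin-coated pits, had the largest. Its polysomal signals were 295, 401, 196 and 361 and its total signals 1422, 1654, 722 and 1086, with every polysomal value lower, and the difference was -1.95 ± 0.31 (adjusted p = 0.00377). Tle5, a corepressor of the Groucho family, read 4084, 2737, 4790 and 4132 in polysomal and 10470, 11890, 18100 and 16260 in total RNA. All 4 of its tested probe sets were lower in polysomal RNA, and the brightest differed by -1.84 ± 0.29 (adjusted p = 0.00325). Plagl1, an imprinted zinc finger gene, stood at 241, 241, 261 and 347 against 631, 982, 1028 and 755, a difference of -1.63 ± 0.21 (adjusted p = 0.00167).

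Ucp2, an uncoupling protein of the inner mitochondrial membrane, is known for control at the level of translation. Its polysomal signals of 1859, 3073, 4729 and 4290 all lay below its total signals of 8072, 7034, 10370 and 9236, and the difference was -1.39 ± 0.30 (adjusted p = 0.0141). Sod3, the secreted superoxide dismutase, read 916, 954, 828 and 753 in polysomal and 2646, 2451, 1442 and 2295 in total RNA, a difference of -1.32 ± 0.25. Aplp2, a relative of the amyloid precursor protein, read 1472, 1554, 1148 and 1182 against 4091, 4028, 2799 and 2707, a difference of -1.33 ± 0.22, and all 4 of its probe sets were lower. Dhx9, an RNA helicase, differed by -1.36 ± 0.25, and the cation channel Trpc1 by -1.26 ± 0.23. Further genes of this end were Vezf1 (-1.36), a zinc finger factor of blood vessels, Anxa6 (-1.15), an annexin that binds membranes, Svil (-1.13), an actin-binding protein, and Mxi1 (-1.10), a repressor that binds MAX.

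Aldh6a1, Lamc1, Nrarp and Nek9 were also among the 30, but their fractions overlapped. Lamc1, a chain of laminin, stood at 856, 687, 687 and 659.6 in polysomal RNA and 2891, 2875, 1407 and 689.6 in total RNA. Its 2 higher total values were those of numbers 1 and 2, and the difference was -1.91 within numbers 1 and 2 but -0.55 within numbers 3 and 4. Without number 3 of both fractions, 202 genes (5.18%) were called, 112 (2.87%) higher and 90 (2.31%) lower, and these held 22 of the 30 highest and 22 of the 30 lowest genes.

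**Figure D2:**
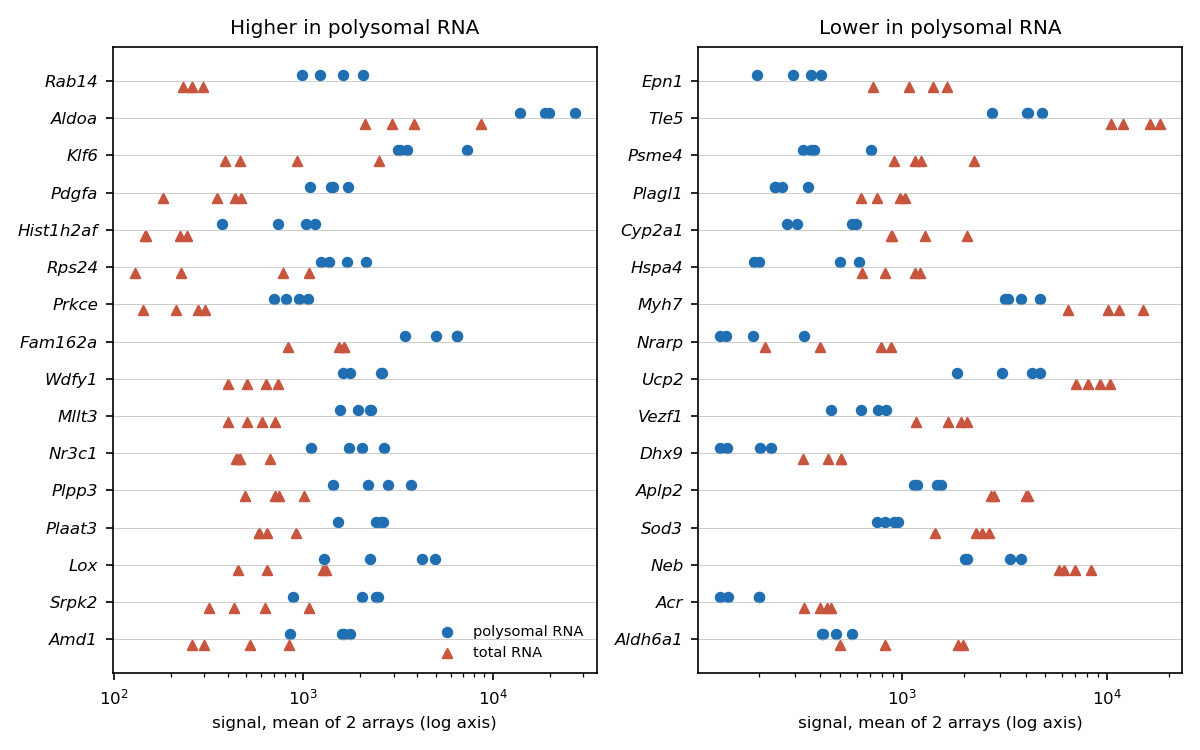
Signal of the 16 called genes with the largest positive (left) and negative (right) log2 difference, above the floor on some array of both fractions, on a log axis; each circle is a polysomal number and each triangle a total number, the mean of 2 arrays on the log2 scale. For Rab14 the polysomal circles start at 991 and the total triangles end at 297, while for Aldh6a1 the fractions overlap.

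Among the parts of the translation machinery, ribosomal protein messages tended to the polysomal side. Counts of calls in this and each later gene list stand beside the 4.25% of all genes called higher and the 5.05% called lower. Of 26 measured genes of the large subunit, 5 were called higher and none lower, and 22 lay above the median of all genes. Without overlap of the fractions, 3 of the 26 were higher and 1 lower, against 5.02% and 7.48% of all genes. The median of the list was 0.33 above that of all genes, 0.46 in numbers 1 and 2 and 0.37 in numbers 3 and 4. Of 11 genes of the small subunit, 1 was called higher and none lower, and 7 lay above the median of all genes. The median of that list was 0.38 above that of all genes.

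Rps24, a protein of the small subunit, had the largest difference of them. Its polysomal signals were 2141, 1693, 1237 and 1364 and its total signals 778, 1068, 129.5 and 227, and the low total values were those of numbers 3 and 4. The difference was 1.99 ± 0.51 (adjusted p = 0.0295), with 1.06 within numbers 1 and 2 and 2.92 within numbers 3 and 4. Rpl17 read 1320, 894, 1215 and 1375 in polysomal and 282, 537, 602 and 456 in total RNA, without overlap, a difference of 1.39 ± 0.26 (adjusted p = 0.00671). Rpl6 read 16040, 13850, 15030 and 22310 against 8754, 6550, 9957 and 7380, a difference of 1.04 ± 0.21 (adjusted p = 0.00963), although the other tested probe set of Rpl6 pointed the other way. Rpl35a differed by 0.84 ± 0.19, Rpl18 by 0.73 ± 0.19 and Rpl11 by 0.62 ± 0.16. Without number 3, Rpl17 and Rpl6 were still called, and Rps24, Rpl35a, Rpl18 and Rpl11 were not.

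Messages of ribosomal proteins are known to begin with a C followed by several pyrimidines, so the annotated starts of these 6 genes are shown, taken from RefSeq on the GRCr8 build. Each sequence runs 5' to 3' on the gene's strand, from 10 bases before the annotated start to 15 from it, with the first 5 transcribed bases in capitals.
Rps24 (chr16:96507-96531, plus strand): ggtcctctttTCCTCctttacagct
Rpl17 (chr18:70856266-70856290, plus strand): ttcgcgcttcCTCTTcctgttagcg
Rpl6 (chr12:41011676-41011700, minus strand): ttacatcactAGATGgcgggtgaaa
Rpl35a (chr11:81235007-81235031, minus strand): tcttgccttcCTCTTtccgccatct
Rpl18 (chr1:105325260-105325284, plus strand): acctggtctaGCAGGaggcgccatc
Rpl11 (chr5:153560788-153560812, minus strand): cttgaagcttGTTTGgtgctgggga
Of these 6 starts, those of Rpl17 and Rpl35a had a C followed by 4 bases that are C or T on the transcribed strand. An annotated start in a table of 1 transcript per gene need not be the start used in muscle. The annotated start of Rps24 was a T inside a longer run of C and T bases. That of Rpl6 had ATG within its first 5 bases. Both were counted as another start, so the division below can misplace genes. Of the 3903 genes, 3019 matched a single start entry, and 79 of them (2.62%) began this way, against 2.6% of the 24206 genes of the table. Among the 79 genes 4 were called higher and 6 lower, against 132 and 146 of the 2940 genes with another start. The median difference was -0.15 for the 79 genes and -0.14 for those with another start. It was 0.038 and -0.05 within numbers 1 and 2, and -0.185 for both within numbers 3 and 4. The 11 ribosomal protein genes with such a start had a median difference of 0.28 with 2 called. The 22 with another start had 0.15 with 4 called. These medians were 0.395 and 0.357 within numbers 1 and 2, and 0.177 and 0.146 within numbers 3 and 4. Without number 3 of both fractions they were 0.176 and 0.208, in the opposite order. The remaining 68 genes with a pyrimidine start had a median of -0.23, with 2 called higher and 6 lower.

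Translation factors lay near the middle. Of 23 measured, 1 was called higher and 1 lower, and the median lay 0.07 above that of all genes, or -0.01 from it under quantile normalization. Pelo, which releases stalled ribosomes, was higher in polysomal RNA, with 2750, 2130, 2082 and 2681 against 758, 965, 939 and 1801 and a difference of 1.18 ± 0.32 (adjusted p = 0.0353). Eef1a2, the muscle and nerve form of the elongation factor that brings aminoacyl-tRNA to the ribosome, was lower, with 6388, 5817, 7124 and 8851 against 19080, 18960, 8956 and 14200 and a difference of -1.07 ± 0.31 (adjusted p = 0.0456). Of its relatives, Eef1a1 differed by 0.21 and Eef2 by -0.10, neither called. The cap-binding protein Eif4e (-0.01) and its inhibitor Eif4ebp1 (-0.13) were not called either. None of 5 measured further messages known for pyrimidine starts was called, among them Naca (0.39) and Rack1 (-0.25).

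In the gene lists of the mitochondrial respiratory chain, all calls were higher in polysomal RNA. Probe sets with several gene symbols or none were not part of these lists. Complex I takes electrons from NADH. Of its 24 measured genes, 9 were called higher and none lower, against 4.25% and 5.05% of all genes. Of these 24, 23 lay above the median of all genes. The median of the list was 0.62 above that of all genes, 0.81 within numbers 1 and 2, 0.35 within numbers 3 and 4 and 0.72 at 1 h. Ndufa8, an accessory subunit, read 16070, 13060, 15470 and 11410 in polysomal and 6895, 6230, 3523 and 5165 in total RNA, a difference of 1.39 ± 0.20 (adjusted p = 0.00203). Ndufc1 read 19910, 16830, 21870 and 18820 against 8838, 6265, 8001 and 10000, a difference of 1.24 ± 0.20 (adjusted p = 0.00396). Neither overlapped between the fractions. Ndufb3 (1.35), Ndufb6 (1.15), Ndufs4 (1.04), Ndufb11 (0.98), Ndufc2 (0.95), Ndufb10 (0.94) and Ndufa5 (0.92) were called too. Without number 3, Ndufa8, Ndufc1, Ndufb3, Ndufb11 and Ndufs4 were still called.

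Ndufs1, the largest subunit of complex I, was among the genes not called. Its polysomal signals were 156, 129.5, 129.5 and 129.5, and its total signals were 1616 and 1549 in numbers 1 and 2 but at the floor of 129.5 in numbers 3 and 4. Its difference was -1.74 ± 0.68 (adjusted p = 0.121).

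Of 12 genes of complex IV, cytochrome c oxidase, 3 were called higher and none lower: Cox6c (1.40 ± 0.35), Cox6a1 (1.11 ± 0.32) and Cox7b (0.83 ± 0.19). The list median was 0.52 above that of all genes in numbers 1 and 2 and -0.01 in numbers 3 and 4. Of 10 genes of ATP synthase, only Atp5if1, which encodes its inhibitor, was called. It read 3336, 4488, 2924 and 2465 in polysomal and 1077, 979.5, 1502 and 1432 in total RNA, without overlap, a difference of 1.39 ± 0.23 (adjusted p = 0.00403). None of 5 genes of complexes II and III was called.

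Among the enzymes that feed the chain, calls were near or below the 9.3% of all genes. Of 30 measured genes of the citrate cycle and fatty acid oxidation, none was called higher and 1 lower, Dlat, a component of pyruvate dehydrogenase (-0.93 ± 0.23). Of 22 genes of glycolysis and glycogen metabolism, Aldoa was called higher and Pygb, the brain form of glycogen phosphorylase, lower (-0.69 ± 0.19), and 7 of the 22 lay above the median of all genes. Taldo1, transaldolase of the pentose phosphate pathway, differed by 1.56 ± 0.36.

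The proteasome list had the highest median of the lists with 10 or more measured genes, 0.69 above all genes. Of its 26 measured genes 5 were called higher and 1 lower, against 4.25% and 5.05% of all genes. Of these 26, 24 lay above the median of all genes. The excess was 1.03 within numbers 1 and 2, 0.35 within numbers 3 and 4 and 0.34 at 1 h. Psma4, a ring subunit of the core, read 3001, 4572, 1973 and 3219 in polysomal and 1752, 1413, 1192 and 1295 in total RNA, a difference of 1.13 ± 0.25 (adjusted p = 0.0158). Psmd11, a lid subunit of the regulatory particle, read 16790, 14030, 13290 and 17350 against 6098, 6569, 2718 and 9315, a difference of 1.44 ± 0.35 (adjusted p = 0.0229). In both the fractions did not overlap. The core subunits Psma5 (0.93), Psmb3 (1.01) and Psmb1 (0.80) were called too, with larger differences within numbers 1 and 2 (1.43, 1.63 and 1.37) than within numbers 3 and 4 (0.43, 0.39 and 0.23).

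Psme4, an activator that caps the core in place of the regulatory particle, went the other way. Its polysomal signals were 371, 702, 329.5 and 360.1 and its total signals 2246, 1240, 909 and 1161, a difference of -1.64 ± 0.34 (adjusted p = 0.0102). Among 23 measured genes of ubiquitin transfer, calpains and cathepsins, none was called higher and 2 lower. These were Capn1, a calcium-activated protease (-0.85 ± 0.14, adjusted p = 0.00413), and the cathepsin Ctsk (-0.80 ± 0.18). Trim63, the muscle ubiquitin ligase MuRF1, was not called, at 8202, 13300, 8476 and 10500 in polysomal and 2799, 3279, 27480 and 10650 in total RNA.

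**Figure D3:**
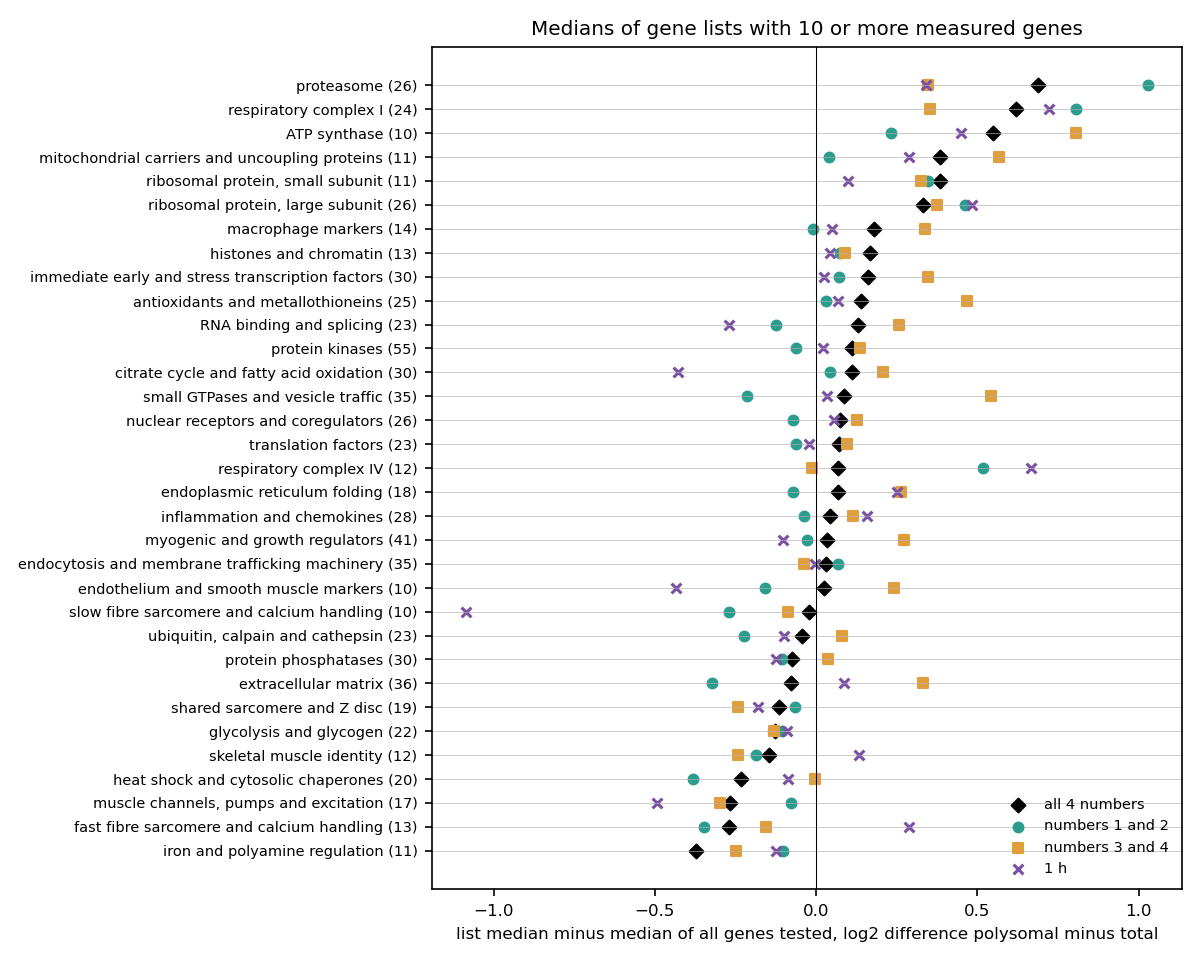
For each gene list with 10 or more measured genes (number in parentheses), the median log2 difference polysomal minus total, less the median of all 3903 genes, over all 4 numbers (diamonds), numbers 1 and 2 (circles), numbers 3 and 4 (squares) and at 1 h (crosses). The proteasome list stands at 0.69 and complex I at 0.62 over all numbers, and the small GTPases stand at -0.21 in numbers 1 and 2 and at 0.54 in numbers 3 and 4.

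Contractile protein messages were called about as often as other genes, of which 4.25% were higher and 5.05% lower. Of 13 genes of fast fibres, none was called, and 4 lay above the median of all genes. Of 10 genes of slow fibres, Myh7 was called lower and Tpm3 higher. Myh7, the slow myosin heavy chain, read 4722, 3287, 3184 and 3815 in polysomal and 6464, 10050, 11440 and 14880 in total RNA, without overlap, a difference of -1.47 ± 0.28 (adjusted p = 0.00646). Tpm3, the slow tropomyosin, read 3218, 1849, 3246 and 3733 against 1274, 1252, 1518 and 1587, a difference of 1.06 ± 0.29 (adjusted p = 0.0359). Of 19 sarcomere and Z disc genes shared by fibre types, 2 were called lower. Neb, the giant thin filament protein nebulin, read 3368, 3788, 2065 and 2036 in polysomal and 6934, 8313, 5793 and 6158 in total RNA, a difference of -1.31 ± 0.28 (adjusted p = 0.0123). Actn2, the Z disc crosslinker alpha-actinin-2, differed by -0.78 ± 0.23, with overlap. Nos1, the neuronal nitric oxide synthase of the muscle membrane, was the only call among 17 channels and genes of excitation (-0.71 ± 0.16).

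Immediate early and stress-induced transcription factors are known to be switched on by contraction. Of 30 measured genes of that list 3 were called, near the 9.3% of all genes. All 3 were higher, against 4.25% of all genes. Besides Klf6 these were Ddit3 (CHOP), a factor of the endoplasmic reticulum stress response, and Dusp6. Dusp6 is a phosphatase of ERK and not a transcription factor, though the list holds it. Ddit3 read 1071, 899.8, 1187 and 1100 in polysomal and 306, 329, 351 and 667 in total RNA, a difference of 1.43 ± 0.42 (adjusted p = 0.0457). Dusp6 read 749, 711, 1197 and 1248 against 595, 465, 449 and 432, a difference of 0.97 ± 0.29 (adjusted p = 0.048). None of the 3 was called without number 3, where Klf6 differed by 2.03 (adjusted p = 0.0502), Ddit3 by 1.33 (0.145) and Dusp6 by 0.82 (0.168).

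Further genes known to be induced by exercise were not called, and they are named after their values were seen. Fos, part of the AP-1 factor, read 9971, 10340, 12560 and 21570 in polysomal and 3583, 10330, 5136 and 14740 in total RNA. Atf3, a stress-induced repressor, read 22970, 12740, 25320 and 34440 against 3326, 20990, 11950 and 27940, and Egr1, a zinc finger immediate early gene, 11740, 18240, 22000 and 40010 against 4184, 25870, 21400 and 38830. Ankrd1, a stretch-induced sarcomere protein, read 25400, 19370, 22750 and 42870 against 4722, 27470, 11990 and 31570, and Hspa1a, the inducible heat shock protein 70, 18180, 13620, 19570 and 29060 against 4104, 21960, 4373 and 21400. Total number 1 was the lowest value of all 8 for each of these 5 genes, and the standard errors ran from 0.51 to 0.84. The differences were 0.83 for Fos, 0.86 for Atf3, 0.27 for Egr1, 0.82 for Ankrd1 and 1.01 for Hspa1a. The 95% interval of the Egr1 difference ran from -1.13 to 1.66, so the data bound these genes only loosely.

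Among 41 genes of myogenesis and growth, Pdgfa and Igfbp3 were called higher and Mef2d, Met and Igf2 lower. Of all genes, 4.25% were called higher and 5.05% lower. Igfbp3, a carrier of insulin-like growth factors, read 893, 1097, 855 and 1781 in polysomal and 594, 325, 368 and 361 in total RNA, a difference of 1.47 ± 0.28 (adjusted p = 0.00764). Mef2d, a transcription factor of muscle genes, read 1038, 696, 713 and 752 against 1429, 1567, 1460 and 1184, a difference of -0.83 ± 0.15 (adjusted p = 0.00535). Igf2, insulin-like growth factor 2, differed by -0.66 ± 0.20, with the fractions overlapping. Met, the receptor of hepatocyte growth factor, was close to the floor in polysomal RNA and differed by -0.80 ± 0.23.

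Of 20 measured heat shock proteins and cytosolic chaperones, none was called higher and 3 were lower, against 4.25% and 5.05% of all genes. Hspa4, of the HSP110 family, read 501, 616, 200.2 and 189 in polysomal and 826, 1156, 637 and 1225 in total RNA, a difference of -1.50 ± 0.43 (adjusted p = 0.044). Chordc1, an HSP90 partner, read 506, 637, 772 and 734 against 974, 1478, 1236 and 1325, a difference of -0.92 ± 0.20, and Hspa1l differed by -0.95 ± 0.27. In the endoplasmic reticulum list of 18 genes the calls fell on both sides. The lectin chaperone Canx was lower, with 945, 1389, 1032 and 1300 against 1825, 2187, 2456 and 3062 and all 5 of its probe sets in that direction, a difference of -1.02 ± 0.23. Hsp90b1 differed by -0.56 ± 0.15. The prolyl isomerase Ppib was higher by 0.84 ± 0.23, and Emc8, of a membrane insertion complex, is given with the genes at the floor.

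Of 36 measured genes of the extracellular matrix, 1 was called higher and 4 lower, against 4.25% and 5.05% of all genes. The higher gene was Lox, which crosslinks collagen and elastin, with 1292, 2245, 4949 and 4213 in polysomal and 647, 455, 1322 and 1270 in total RNA and a difference of 1.73 ± 0.45. The lower genes were Bgn (-0.70 ± 0.17), a small proteoglycan, Sparc (-0.94 ± 0.24), Lamc1 and Col12a1 (-0.63 ± 0.16). The median of the list lay -0.32 from that of all genes within numbers 1 and 2 and 0.33 within numbers 3 and 4. The superoxide dismutases were called in opposite directions. Sod1, the cytosolic form, read 8659, 12020, 9502 and 7128 in polysomal and 5439, 5283, 2823 and 5953 in total RNA, a difference of 0.97 ± 0.23 (adjusted p = 0.02), while Sod3 was lower. The iron regulatory protein Aco1, which binds messages of iron metabolism, was lower by -0.88 ± 0.20 (adjusted p = 0.0153), with 376, 376, 276 and 318 in polysomal and 657, 795, 438 and 613 in total RNA.

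Membrane traffic was divided as well. Of 35 small GTPases and vesicle genes, 3 were called higher and none lower, against 4.25% and 5.05% of all genes. The 3 were Rab14, Cdc42, which organises actin and cell polarity, and Rala, a GTPase of exocytosis. Cdc42 read 6449, 7870, 7194 and 7907 in polysomal and 3325, 2970, 5411 and 5037 in total RNA, a difference of 0.86 ± 0.18, and Rala differed by 0.73 ± 0.16. Of 35 genes of endocytosis and fusion, 3 were higher and 4 lower, against the same shares of all genes. The plasma membrane syntaxin Stx4 was higher by 1.64 ± 0.45 and the muscle vesicle protein Vamp5 by 0.84 ± 0.21. The clathrin adaptor subunit Ap2b1 was lower by -0.94 ± 0.19, the endosomal syntaxin Stx7 by -0.86 ± 0.15 and the fusion protein Snap23 by -0.85 ± 0.23, beside Epn1. Stx4 lost its call without number 3, and Ap2b1 and Stx7 kept theirs.

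Of 55 protein kinases, 6 were called higher and 3 lower, against 4.25% and 5.05% of all genes. The calcium and calmodulin kinases did not share a direction. Camk2g read 2071, 2197, 1650 and 1877 in polysomal and 594, 570.1, 1092 and 1068 in total RNA, a difference of 1.29 ± 0.24 (adjusted p = 0.00646), whereas Camk2d read 839, 848, 562 and 739.7 against 1414, 1420, 939 and 1090, a difference of -0.70 ± 0.20 (adjusted p = 0.0439). Camk1 was higher by 0.79 ± 0.20. Pdpk1, which activates Akt, was higher by 1.01 ± 0.26, and the Src-family kinase Fyn by 1.24 ± 0.33. Araf, a RAF kinase, and Prkar2a, a regulatory subunit of protein kinase A, were lower by -0.51 ± 0.14 and -0.55 ± 0.16. Of 30 phosphatase genes, 2 were higher and none lower, against the same shares of all genes. Ptp4a2 read 16560, 16790, 20640 and 17070 in polysomal and 7165, 7028, 5238 and 9967 in total RNA, a difference of 1.30 ± 0.23. Ppp3ca, the catalytic subunit of the calcium-dependent phosphatase calcineurin, read 6997, 9309, 5857 and 7994 against 3611, 3813, 4353 and 4277, a difference of 0.89 ± 0.17 (adjusted p = 0.00646).

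Of 26 nuclear receptors and coregulators, Nr3c1, the oxysterol receptor Nr1h2 (1.18 ± 0.22) and the corepressor Sin3b (1.69 ± 0.29) were higher, and Tle5 and the retinoic acid receptor Rara (-0.87 ± 0.16) lower. Rara read 4427, 3454, 4140 and 3544 in polysomal and 6284, 6386, 8419 and 7419 in total RNA, but only 1 of its 3 tested probe sets pointed that way. Dhx9 was the only call among 23 RNA-binding and splicing genes. Among 13 histone and chromatin genes, the histone gene Hist1h2af was higher (2.03 ± 0.31) and the chromatin remodeller Smarcd2 lower (-0.56 ± 0.16). Of 28 genes of inflammation, only Nfkbia, the inhibitor of NF-kappa-B that NF-kappa-B itself induces, was called. It read 1779, 2191, 2205 and 2131 in polysomal and 548, 564, 739 and 1224 in total RNA, a difference of 1.51 ± 0.26 (adjusted p = 0.00463). The noncoding RNAs H19 (-0.71) and Gas5 (-0.13) were not called.

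The 12 measured genes of skeletal muscle identity summed to signals of 96168 to 255287 in polysomal and 133977 to 392758 in total RNA, and 10 of the 12 were above the floor on all 8 arrays of either fraction. None of them was called. Tnnc2, the calcium sensor of fast fibres, had polysomal signals of 2002, 652, 2134 and 18750 and total signals of 13970, 14580, 49990 and 25030, and only polysomal number 4 reached the total values (difference -3.06 ± 1.10, adjusted p = 0.0941). No measured marker of other cell types was at the floor on all 16 arrays, but a gene was measured only if 4 or more arrays exceeded it. The 3 neutrophil markers summed to 396 to 1448 in polysomal and 403 to 719 in total RNA, close to the floor in some numbers. None of these 3 was above the floor on all 8 arrays of a fraction. The 14 macrophage markers summed to 11164 to 23787 in polysomal and 9624 to 15650 in total RNA, with C1qc called lower (-0.60 ± 0.17). Of these 14, however, 9 lay above the median of all genes. Their median was 0.18 above that of all genes, or -0.01 from it without number 3. The 4 red cell markers summed to 23187 to 64954 and 38460 to 62301, with the anion exchanger Slc4a1 called lower (-0.77 ± 0.15), and the 7 adipocyte markers to 14889 to 28030 and 17400 to 26901, with the fatty acid binding protein Fabp4 called higher (1.39 ± 0.39). None of 3 neutrophil, 10 endothelial and smooth muscle, and 9 nerve and Schwann cell markers was called. The part of these cells in the fraction differences was not tested.

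For a few called genes, all arrays of a fraction were at the floor, so their differences are bounds. Emc8 was at the floor on every array of total RNA and had polysomal signals of 240.3, 301, 414 and 158, at least 2.02-fold higher. Gpam, an enzyme of triglyceride synthesis, was at the floor in polysomal RNA and had total signals of 224, 234, 251 and 159.6, at least 1.65-fold lower in polysomal RNA. Pcsk2, a prohormone convertase, Hrk, a cell death activator, and Neurod1, a neuronal transcription factor, were also at the floor on every polysomal array.

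Probe sets of the same gene did not always agree. Of 132 called genes with more than 1 tested probe set, 94 had all of them in 1 direction, against 755 of 1152 among all such genes. In 6 genes, probe sets were called in opposite directions: Lox (1.73 and -1.17), Add3 (1.25 and -0.86), Cyp51 (1.13 and -0.47), Map3k1 (1.20 and -0.63), Pja2 (1.06 and -1.44) and Sparc (1.08 and -0.94). Calls for Lox and Sparc given above therefore hold for their brightest probe set only. The largest difference of any probe set, 4.86 ± 0.86, belonged to one without a single gene symbol, with polysomal signals of 8286, 10237, 13602 and 29978 and total signals of 443, 618, 1001 and 179.

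The fractions were then compared in each pair of numbers, 1 with 2 and 3 with 4. The former pair gave 756 called probe sets (11.3%), 255 (3.8%) higher and 501 (7.47%) lower, and the latter 406 (6.05%), 180 (2.68%) higher and 226 (3.37%) lower. Of the 588 called over all numbers, 270 were called within numbers 1 and 2, 200 within numbers 3 and 4 and 77 within both, 45 higher and 32 lower. The differences of the pairs, which share no array, correlated at r = 0.23 over 6707 probe sets, given as a description of probe sets that are not independent. The test of the change between the pairs called 294 probe sets (4.38%). The difference was more positive in numbers 3 and 4 for 217 (3.24%) and more negative for 77 (1.15%). A more positive difference is a smaller one where polysomal RNA stayed the lower fraction.

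**Figure D4:**
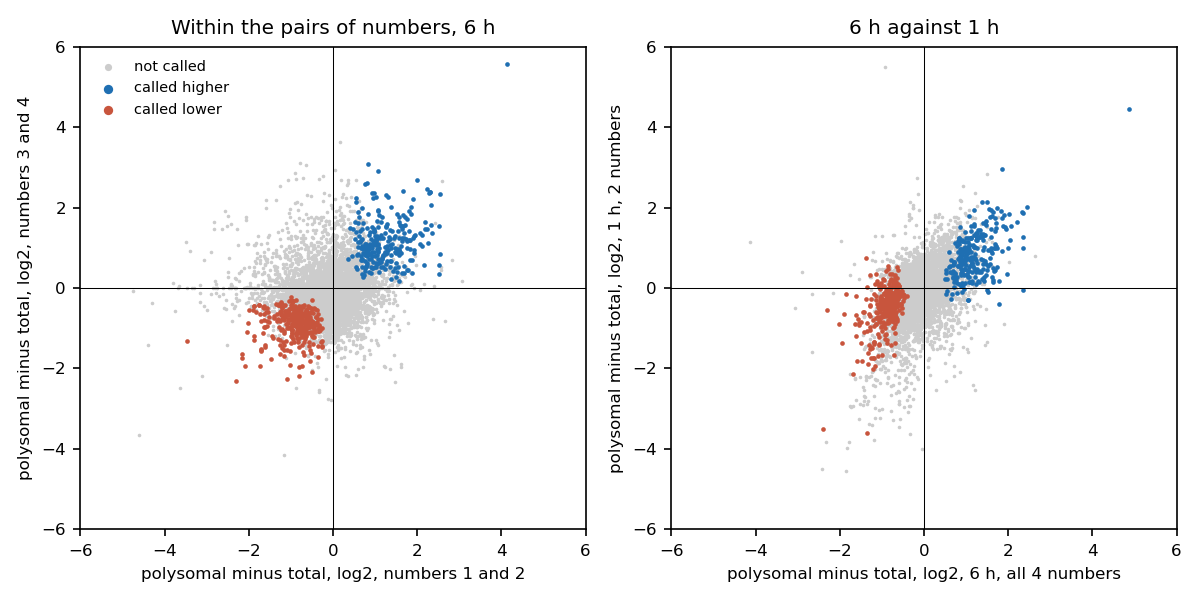
Log2 difference polysomal minus total of each tested probe set. Left, within numbers 3 and 4 against within numbers 1 and 2; right, at 1 h against at 6 h; blue points were called higher and red points lower at 6 h over all 4 numbers, and grey points were not called. All 588 coloured points have the same sign in both pairs on the left, where the pairs themselves make up the comparison that called them, and 536 of them have the same sign at both times on the right.

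Total RNA was then compared between the pairs, and so was polysomal RNA. Total numbers 3 and 4 differed from total numbers 1 and 2 at 1084 probe sets (16.2%), 357 (5.32%) higher and 727 (10.8%) lower, while no probe set (0%) differed between polysomal numbers 3 and 4 and polysomal numbers 1 and 2 in limma, with 515 at an unadjusted p below 0.05. Of the probe sets tested, 134 were above the floor on all 4 arrays of total numbers 1 and 2 and at it on all 4 arrays of numbers 3 and 4, and 20 were the reverse. Of the 134, 46 were at the floor on all 8 polysomal arrays of 6 h, 12 were above it on all 8, and 93 were above it on all 4 arrays of total RNA of 1 h. Only 1 of the 134 was called between the fractions over all numbers. The cut for these counts was chosen after the data were seen.

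Gpd1, the cytosolic glycerol 3-phosphate dehydrogenase, was the plainest case. Its total signals at 6 h were 4094, 3567, 138 and 135, and its polysomal signals 129.5, 154, 129.5 and 129.5. At 1 h its total signals were 3588 and 2532 and its polysomal signals 137 and 129.5. Total numbers 3 and 4 thus read like polysomal RNA for Gpd1, and its difference was -4.76 within numbers 1 and 2 and -0.07 within numbers 3 and 4 (adjusted p of the change = 0.00209). Cs, citrate synthase, had total signals of 3839, 3777, 245 and 326 and polysomal signals of 783, 607, 440.2 and 508, with -2.47 within the first pair and 0.74 within the second. Cav1, the coat protein of caveolae, had total signals of 1572, 1121, 129.5 and 129.5 and was at the floor in all polysomal numbers. Vdac1, the porin of the outer mitochondrial membrane, had total signals of 12190, 12290, 129.5 and 1639 and polysomal signals of 2305, 1824, 1655 and 1850. The late endosome GTPase Rab7a, with total signals of 2533, 2122, 129.5 and 129.5, belonged here too.

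Pdk4, the kinase that shuts off pyruvate dehydrogenase, read 7902, 4369, 129.5 and 129.5 in total and 3018, 3852, 742 and 1672 in polysomal RNA, and its difference was -0.79 within numbers 1 and 2 and 3.10 within numbers 3 and 4. Genes of the opposite kind were low in total numbers 1 and 2. Sart1, a splicing factor, had total signals of 186, 187, 1943 and 1604 and polysomal signals of 1097, 1276, 689 and 1457. Cited2, a transcriptional coregulator, read 1180, 1316, 7797 and 6055 in total and 7455, 7286, 7279 and 11940 in polysomal RNA, and Trim63 had the same order. The sign of the fraction difference depended on the pair for Sart1, at 2.67 and -0.82, and for Trim63, at 1.79 and -0.86.

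**Figure D5:**
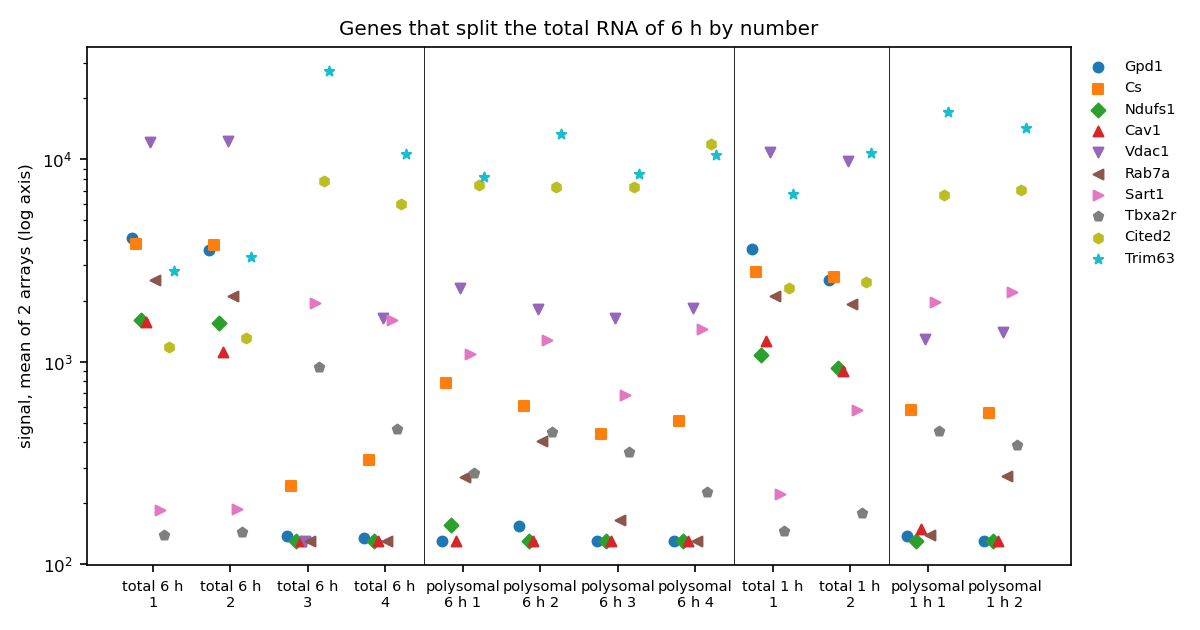
Signal (log axis) of 10 genes that differ between the pairs of total numbers at 6 h, in every number of total and polysomal RNA at 6 h and at 1 h; each point is the mean of 2 arrays on the log2 scale, at least 129.5. Gpd1, Cs, Ndufs1, Cav1, Vdac1 and Rab7a are high in total numbers 1 and 2 of 6 h and in total RNA of 1 h, and Sart1, Tbxa2r, Cited2 and Trim63 are low in total numbers 1 and 2 of 6 h.

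The same comparison 1 h after contractions, on other arrays with 2 numbers per fraction, called 26 probe sets (0.388%), 13 higher and 13 lower, and 19 of them were called in the same direction at 6 h. Leaving out a number of 1 h changed that count to 85 (without polysomal number 1), 15 (without total number 1) and 1 (without polysomal number 2, and without total number 2). Of the 253 probe sets called higher at 6 h, 240 were above 0 at 1 h, and of the 335 called lower, 296 were below 0, against 2989 above and 3718 below 0 among all tested. Their median difference was 0.76 for those called higher and -0.44 for those called lower, against 1.13 and -0.85 at 6 h. Over all 6707 probe sets the differences of 6 h and 1 h correlated at r = 0.51, as a description.

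Named genes called at both times and in the same direction included Rab14 (2.02 at 1 h), Wdfy1 (1.81), the collagen-modifying gene P3h4 (1.93), Mtdh (1.57), Ppp3ca (1.20) and Rala (1.13). Fstl1, a secreted glycoprotein, read 4569, 4548, 7869 and 6127 in polysomal and 1755, 2104, 2484 and 2360 in total RNA at 6 h, and its difference was 1.38 at 6 h and 2.13 at 1 h. On the lower side were Sod3 (-1.89), Aplp2 (-1.61), the transcription elongation factor Supt5h (-1.40) and Aco1 (-1.37). Tle5 and Vezf1, called lower at 6 h, stood at -0.14 and 0.02 at 1 h.

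No probe set (0%) passed the test of the change of the fraction difference between 1 h and 6 h in limma, and 372 had an unadjusted p below 0.05. Leaving out polysomal number 1 of 1 h gave 14 calls, total number 1 gave 8 and total number 2 gave 1. The smallest p belonged to Chrna1, the alpha subunit of the acetylcholine receptor of muscle. Its total signals at 1 h were 2786 and 17110 and its polysomal signals 467 and 398, whereas at 6 h it read 690, 771, 552 and 401 in total and 789.8, 744, 444 and 401 in polysomal RNA. The 2 total values at 1 h were far apart, and the change was 3.96 (adjusted p = 0.417). Next were Tuba4a, an alpha-tubulin (-1.17), Pcsk2 (-1.07), the helicase Ruvbl1 (1.41) and Ghr, the growth hormone receptor (-2.04). For Rab14 the change was 0.42, with a 95% interval from -0.49 to 1.33, and for Tle5 it was -1.70, from -2.78 to -0.63. Neither passed the threshold after adjustment, and the interval for Tle5 leaves out 0.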

How the data were processed

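The deposited file holds 1 table of linear intensity values, 8799 probe sets by 36 arrays, in the scale in which the authors deposited it; the program that made the intensities and the scaling target are not given in the sources used here. From the values, the mean signal with extremes trimmed was 801 to 802 on every array, so arrays had been scaled to a common level. After removing 59 control probe sets, signals were floored at the 40th percentile of all values (129.5), taken to log2 and averaged over the 2 arrays of a number; a probe set was tested if 4 or more arrays exceeded the floor (6707 passed). A linear model with all 6 groups of the series (18 numbers, 12 residual degrees of freedom) was fitted in limma 3.58.1 (R 4.3.3), with Benjamini-Hochberg adjustment over all probe sets tested and calls at an adjusted p below 0.05. The fit was tested on simulated data with known changes. Gene symbols came from the platform's annotation (7006 of 8740 probe sets had 1 symbol, 308 several and 1426 none), updated to RefSeq GRCr8. A gene's brightest probe set over the 16 arrays of 6 h represents it. Signals in the text are log2 means turned back to the linear scale, so 129.5 means at or below the floor. The array number limits the precision.

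Genes were named by rule: the 30 highest and 30 lowest called genes above the floor in both fractions, all called members of each list and up to 3 uncalled members with the smallest p, called genes at the floor in 1 fraction, genes with opposite probe sets, and the leading genes of each further comparison; 5 exercise-induced genes (Fos, Atf3, Egr1, Ankrd1, Hspa1a) and 5 uncalled genes of translation (Eef1a1, Eef2, Eif4e, Eif4ebp1, Rack1) fall outside it and were chosen after their values were seen. Lists and rules were chosen with earlier results of these data known. Equal numbers were not treated as pairs, since the labels do not say that they are.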

Additional observations from a re-analysis of the deposited data

Results flagged for a closer look

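In 25 of 314 sets of 4 numbers, 1 number lay apart from the other 3 by Dixon's criterion, which flags about 1 in 20 sets by chance. Total number 3 was the number apart for the beta-actin ratio (10.2 on average) and the GAPDH ratio (10.5) of 3' to 5' signal, and for Cox6c (624), Fam162a (834), Sod1 (2823), Nr3c1 (666) and Ndufb11 (11120), the first 3 of these genes being lower there and the last 2 higher. Total number 4 was apart for Rpl11 (10940) and total number 1 for C1r (1403), both higher than the others. Among polysomal numbers, number 1 was apart for Amd1 (856.0), Araf (707), Ghr (1152), Nfkbia (1779) and Rpl18 (6570), where it was lower, and for Lamc1 (856), Ndufs1 (156.5) and Supt5h (1238), where it was higher. Number 2 was apart for Gpd1 (154) and Psme4 (702), number 3 for Nr1h2 (3570) and Ptp4a2 (20640), and number 4 for Cited2 (11940), Klf6 (7271) and Met (159.8), all higher than the other 3, and number 4 for Plaat3 (1521), where it was lower. In Gpd1, Ndufs1 and Met these values were close to the floor.

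The fraction difference changed between numbers 1 and 2 and numbers 3 and 4 at 294 probe sets in limma. Among the genes named, the change (numbers 3 and 4 minus numbers 1 and 2, log2) was 4.68 for Gpd1, 4.50 for Vdac1, 3.47 for Ndufs1, 3.36 for Cav1, 3.21 for Cs, 2.99 for Rab7a, 1.45 for Aldh6a1, -2.12 for Cited2, -2.54 for Tbxa2r, -2.64 for Trim63 and -3.48 for Sart1. The beta-actin 3' to 5' ratio was high in total number 3 but not across its pair. In total number 4 it was 1.09 and 1.25, within the range of total numbers 1 and 2. The 3' to middle ratio of total number 4, at 3.19 and 2.92, lay above their range of 0.84 to 1.25.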

How the results depend on the processing

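The comparison of the fractions at 6 h called 588 probe sets, 43% of them higher. The count was 390 with no filter, 128 with the 2 groups alone and 1592 with array weights. With only the first array of each number it was 161, and with only the second 469. It was 960 for numbers 1 and 2 alone, 181 for numbers 3 and 4 alone and 1468 for all polysomal numbers against total numbers 1 and 2. It was 247 to 1099 when a number was left out of a fraction, and 340, 137, 326 and 681 without numbers 1, 2, 3 and 4 of both. Calls were 65.7% higher under quantile normalization, which moved the median of all probe sets from -0.16 to -0.04. Samples of the same number correlated in their deviations at 0.07, 0.25, 0.16 and 0.22 for numbers 1 to 4, and numbers 2, 3 and 4 matched their own number best. With the number as a replicate block and all groups kept, an alternative chosen after seeing the data, 752 probe sets were called, 555 of the 588 among them; with the block and the 2 groups alone, none was called in limma (1252 at an unadjusted p below 0.05). Leaving out array b of number 2 of the control titled 1hr polysome, also chosen then, gave 571. The count at 1 h was 1 to 85, and that of the change from 1 h to 6 h 0 to 14, when a number was left out. Between polysomal pairs, quantile normalization called 2 probe sets and 75th percentile scaling 3. Of 3916 values of called named genes under the alternatives, 2719 kept their call, 1197 lost it and none changed sign. Cs, not called, was 1.02 (called) against total numbers 3 and 4. Of 40 list medians, 34 kept their sign relative to all genes under quantile normalization, 38 under 75th percentile scaling, 29 without number 3, 28 within numbers 1 and 2 and 35 within numbers 3 and 4. A comparison by protein length was not run, since no protein table was used here.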

Other observations

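Probe sets whose name starts with rc_ were compared with the others after the data were seen. Of 2710 such probe sets, 148 (5.46%) were called higher in polysomal RNA and 137 (5.06%) lower in limma. Of the 3997 others, 105 (2.63%) were called higher and 198 (4.95%) lower, and the median differences were -0.12 and -0.18. Beta-actin 3' to 5' ratios lay between 2.54 and 4.48 in polysomal RNA and between 1.01 and 1.58 in total RNA other than number 3. The lowest called difference of a probe set without a single gene symbol was -2.39 ± 0.44 at 6 h and -3.50 at 1 h, with polysomal signals of 173, 130, 642 and 472 and total signals of 1391, 1954, 1304 and 1444.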
